A study of Mus musculus with 9 samples.

Results

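Galectins are animal lectins that bind beta-galactoside sugars on glycoproteins, and Lgals3bp encodes a heavily glycosylated secreted protein that several of them bind. The genes of this group described here are Lgals1, Lgals3, Lgals8, Lgals9 and Lgals3bp, 5 of the 16921 gene identifiers in the deposited RiboSeq table and were found by their symbols. They were chosen by a rule that had earlier measured values of these same libraries in view, in which Lgals3bp already stood out. All group differences below are therefore descriptions, and none of them is a test.

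RiboSeq sequences the mRNA fragments that ribosomes protect from nuclease, so a value measures ribosome occupancy of a gene's mRNA, which combines how much mRNA there is with how many ribosomes sit on it. The 9 libraries came from 3 lines of immortalized mouse bone marrow-derived macrophages, with 3 replicates each. All 3 lines lacked endogenous TTP (tristetraprolin, gene Zfp36), a protein that binds AU-rich elements of mRNAs and promotes their decay. They had been immortalized with the oncogenes hcmyc and hRasG12V, and CD11b- and F4/80-positive cells were transduced with a doxycycline-inducible vector. The vector expressed GFP alone (GFP-only macrophages), a GFP fusion of TTP (GFP-TTP), or GFP fused to TTP-AA (GFP-TTP-AA), a mutant in which the serines phosphorylated by the kinase MK2 are alanines. All cells received doxycycline at 1 µg/ml for 6 h and lipopolysaccharide (LPS) at 1 µg/ml for 1 h. Each construct was carried by its own transduced line, so construct and line cannot be told apart. Nothing in the labels says that the replicates came from separate cultures.

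The deposited values were already fitted by the authors' model. Each value was, up to a constant of its library, the sum of a group term and a replicate-number term on the log2 scale, with a residual SD of 1.64e-15. The 3 replicates of a group thus hold no independent scatter, this table yields no standard error or p-value, and groups that do not overlap do so in fitted values. DESeq2 of the version named in the submitters' processing notes by default also pulls group differences towards 0, so folds may be understated. Values below were divided by each library's size factor (0.415 to 2.14) and are called scaled values, and a group's level is the geometric mean of its 3 scaled values. As the size of the fitted differences between replicates, the SD of the replicate term over the 3 numbers was 0.10 (log2) for Lgals1, 0.26 for Lgals3, 0.10 for Lgals3bp, 0.10 for Lgals8 and 0.17 for Lgals9, against a median of 0.15 over the 10102 genes with a mean scaled value of at least 10. Those 10102 genes, called measured genes here, include all 5 members. The sums of the deposited values were 2570292 to 12804501 per library.

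Zfp36 was higher in both lines that carry a TTP construct. For Zfp36 the GFP-only level was 460.4, that of GFP-TTP 929 and that of GFP-TTP-AA 1527, and footprints on the constructs count towards it. Which part of the gene the deletion removes is not given in the labels, so the GFP-only value checks nothing further. All 8 macrophage markers looked for had a row (Adgre1, which encodes F4/80, under its older symbol Emr1), and their summed levels in the order GFP-only, GFP-TTP, GFP-TTP-AA were 94002, 74129 and 105902, most of it Lyz2. Of those markers Mertk was near 5 in every group. The summed levels of fibroblast, T cell, B cell and dendritic cell markers were at most 3.84 in any group, and the neutrophil markers summed to 25.8 to 55.7. Nearly all of the neutrophil sum was S100a8 (27.1, 25.7 and 55.6 in the same order). The neutrophil marker Mpo was at most 0.13, and Ly6g and Elane had no row. In bulk libraries such as these, fewer cells of a type and less RNA per cell cannot be told apart.

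Galectins lack a classical secretion signal, work in the cytosol as well as outside the cell, and fall into prototype, chimera and tandem-repeat classes by how their sugar-binding domains are arranged. Outside the cell they crosslink glycoproteins into lattices. Inside it, galectins that meet sugars exposed on torn endosomes and lysosomes mark the damaged vesicle for repair or autophagy. Lgals3 is a long-used marker of macrophages, and Lgals3bp and Lgals9 are known to respond to interferon.

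Short stretches of sequence are shown for AU-rich pentamers, which TTP is known to bind, and for promoter matches in the genes that differed most. The promoter match is to the core of the interferon response element in Lgals9 and only to a looser form of it in Lgals3bp. Neither binding to these sites nor an effect of them was tested. The sequences of sites after the stop codon were taken from GENCODE vM21, those upstream of start sites from RefSeq (GRCm38.p6), and all are printed 5′ to 3′ on the strand of the gene. For each gene a single transcript was used, that with the longest coding part and, among equals, the longest 3′UTR. Other transcripts of a gene were not searched. The pentamer ATTTA occurred once in the 3′UTR of Lgals3bp, which is 267 bases long, once in that of Lgals3 (480 bases) and 4 times in that of Lgals8 (1430 bases). It did not occur in those of Lgals1 (321 bases) or Lgals9 (416 bases). Over 21020 genes with an annotated 3′UTR, 61.8% held at least 1 ATTTA. The longer TATTTAT was in no member's 3′UTR and in 25.5% of those of all genes. The 2 sites below, with the pentamer in capitals, are bases 97 to 101 after the Lgals3bp stop codon, minus strand of chr11:118392907-118392931, and bases 92 to 96 after the Lgals3 stop codon, plus strand of chr14:47385762-47385786.
Lgals3bp: tcaaatgaaaATTTActagaaggtt
Lgals3: taagacatccATTTAataaagtctc

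In the 250 bases upstream of the RefSeq start site, 4 of the 5 genes had an entry (Lgals3, Lgals3bp, Lgals8 and Lgals9). The letters GAAANNGAAA, the core of the interferon-stimulated response element, were searched on both strands and found once, in Lgals9, 55 to 46 bases upstream of its start. Of all 32851 promoter entries, 2.98% held this motif. The letters TTCNNNGAA, which STAT dimers are known to bind, were in none of the 4 and in 7.02% of all entries. A looser form, NAAANNGAAA, which also covers every GAAANNGAAA match and was searched only after the Lgals3bp sequence had been read, was in Lgals3bp 16 to 7 bases upstream of its start and in 9.35% of all entries. The matching letters are in capitals in the windows of 30 bases below, which lie on the minus strand at chr11:118401960-118401989 and chr11:78984960-78984989. The Lgals9 match reads GAAAAAGAAA on the opposite strand, so its capitals are the reverse complement of the motif, whereas the Lgals3bp match is on the strand printed. In GENCODE vM21 the Lgals3bp window falls inside the first exon of a longer transcript.
Lgals3bp: tcatgtgttttctgAAAATCGAAActaggt
Lgals9: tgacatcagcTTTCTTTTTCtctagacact

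Lgals3bp was the member that differed most between the groups. The gene (ENSMUSG00000033880, GRCm38 chr11:118392751-118402092, minus strand) has a coding length of 1731 bases. Its scaled values were 1048, 1197 and 1115 in GFP-only replicates 1 to 3. They were 163, 187 and 174 in GFP-TTP, and 1637, 1861 and 1709.7 in GFP-TTP-AA. All 3 GFP-TTP libraries lay far below the other 6, the GFP-TTP-AA libraries were the highest, and no groups overlapped in these fitted values. The level was 6.42-fold lower in GFP-TTP than in GFP-only macrophages, a log2 difference of -2.68. In GFP-TTP-AA macrophages it was 1.55-fold above GFP-only (0.63) and 9.95-fold above GFP-TTP (3.31). Lgals3bp was the gene with the lowest GFP-TTP to GFP-only ratio of the 10102 measured genes, and 2 genes, itself included, had a log2 difference at least as large in either direction. In GFP-TTP-AA against GFP-TTP 2 genes, again with itself, differed as much, whereas in GFP-TTP-AA against GFP-only 270 genes (2.67%) did. These comparisons share libraries in pairs, so the low GFP-TTP level enters 2 of the 3.

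Lgals9, a tandem-repeat galectin that binds the T cell surface protein Tim-3 among others, had the same order of groups at a smaller size. Its identifier is ENSMUSG00000001123, its position chr11:78962974-78984946 (minus strand) and its coding length 1059 bases. The scaled values of GFP-only replicates 1 to 3 were 539, 426 and 492. GFP-TTP had 287, 227 and 262, and GFP-TTP-AA had 739.7, 581 and 661. In these fitted values every GFP-TTP library was below every GFP-only library, and these were below every GFP-TTP-AA library. That says only that the group differences exceeded the range of the fitted replicate term (0.34, log2). Replicate 1 was highest and replicate 2 lowest in each group, an order that the groups share by construction. Its level was 1.88-fold lower in GFP-TTP than in GFP-only (log2 -0.91), 1.36-fold higher in GFP-TTP-AA than in GFP-only (0.44) and 2.56-fold higher in GFP-TTP-AA than in GFP-TTP (1.35). Of the measured genes, 79 (0.782%), 876 (8.67%) and 75 (0.742%) differed at least as much in these 3 comparisons.

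**Figure D1:**
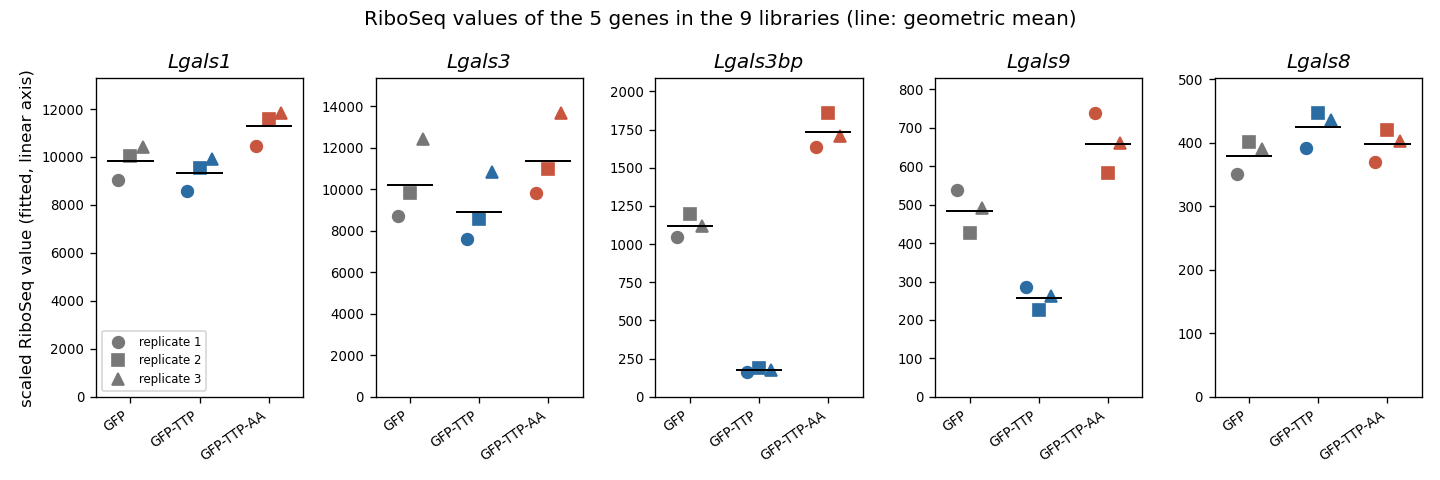
Scaled RiboSeq values (vertical axes, linear and starting at 0, one scale per gene) of the 5 genes in the 3 replicates of each group (GFP is GFP-only); symbols mark the replicate number and the line is the geometric mean of the group. Lgals3bp fell from about 1118 to 174 and stood at 1734 in the 3 groups, Lgals9 followed the same order, and the groups of Lgals3 and Lgals8 overlapped.

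Lgals1 and Lgals3 were the abundant members. Lgals1, a small prototype galectin (ENSMUSG00000068220, chr15:78926725-78930465, plus strand, 405 coding bases), had scaled values of 9036, 10035 and 10427 in GFP-only replicates 1 to 3. The values in GFP-TTP were 8581, 9530.4 and 9902, and those in GFP-TTP-AA were 10476, 11570.4 and 11855. In these fitted values the GFP-TTP and GFP-only libraries overlapped, and the lowest GFP-TTP-AA library lay just above the highest of the other 6. The gap says only that the GFP-TTP-AA difference from GFP-only (0.201, log2) was slightly above the range of the fitted replicate term (0.197). Its level differed by -0.07 (GFP-TTP against GFP-only), 0.20 (GFP-TTP-AA against GFP-only) and 0.28 (GFP-TTP-AA against GFP-TTP) on the log2 scale, the last a 1.21-fold higher level.

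Lgals3, the only chimera galectin, whose sugar-binding domain carries a long flexible tail (ENSMUSG00000050335, chr14:47367751-47386160, plus strand, 792 coding bases), had scaled values of 8714, 9822 and 12418 in GFP-only replicates 1 to 3. GFP-TTP libraries had 7601, 8567 and 10831, and GFP-TTP-AA libraries 9803, 10988 and 13699.6. All groups overlapped, and replicate 3 was the highest in every group, an order that the groups share by construction of the fitted values. The log2 differences were -0.20, 0.16 and 0.36 in the same order of comparisons, beside an SD of 0.26 for its replicate term. With a single library left out, whose replicate term is then unbalanced, the Lgals3 differences ran from -0.34 (without GFP-TTP replicate 3) to -0.06 (without GFP-only replicate 3), from 0.02 (without GFP-TTP-AA replicate 3) to 0.30 (without GFP-only replicate 3) and from 0.22 (without GFP-TTP-AA replicate 3) to 0.50 (without GFP-TTP replicate 3).

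Lgals8, a tandem-repeat galectin that detects damaged endosomes (ENSMUSG00000057554, chr13:12439415-12464944, minus strand, 975 coding bases), was near level in all groups. The scaled values of its GFP-only libraries were 350.1, 400.3 and 389. GFP-TTP libraries had 391, 447 and 435, and those of GFP-TTP-AA 369.7, 420.5 and 403. The groups overlapped throughout. The log2 differences were 0.16, 0.07 and -0.09, so that, unlike the other 4 members, its level was highest in GFP-TTP. Exons of Lgals8 overlap those of Heatr1 on the opposite strand, whether the counting used strand is not given in the sources used here, and reads of both genes could then be shared.

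Set side by side per kilobase of coding length, the means of the 3 group levels ranked as Lgals1 (25037), Lgals3 (12833), Lgals3bp (583), Lgals9 (440.1) and Lgals8 (410.4). Lgals1 was at the 99.84th percentile of the measured genes on that scale and Lgals3 at the 99.5th, while Lgals3bp, Lgals9 and Lgals8 stood at the 80.88th, 75.81st and 74.52nd. Lgals3bp, Lgals9 and Lgals8 differed in these means by less than Lgals3bp or Lgals9 varied between groups, whereas Lgals1 lay above Lgals3 in every group. The order of the last 3 changed with the group. In GFP-TTP macrophages Lgals8 had 435 per kilobase of coding length, Lgals9 had 243 and Lgals3bp had 101, while in GFP-TTP-AA macrophages Lgals3bp had 1002, Lgals9 had 621 and Lgals8 had 407. In GFP-only macrophages Lgals3bp had 646, Lgals9 had 456 and Lgals8 had 389. Of the summed levels of the 5 genes, not scaled for length, Lgals3bp took 5.08% (GFP-only), 0.913% (GFP-TTP) and 6.81% (GFP-TTP-AA), and Lgals1 and Lgals3 took most of the rest. As a share of all deposited values of a library, the 5 genes together made up 0.285% to 0.354% in GFP-TTP, 0.332% to 0.411% in GFP-only and 0.385% to 0.472% in GFP-TTP-AA libraries.

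Counted over the 5 genes, 1 was at or past a 2-fold difference in GFP-TTP against GFP-only, Lgals3bp, which was lower. Among the measured genes this call was made for 0.554%, of which 0.158% were higher and 0.396% lower. In GFP-TTP-AA against GFP-only no member reached 2-fold, against 0.554% of the measured genes, 0.396% higher and 0.158% lower. In GFP-TTP-AA against GFP-TTP, Lgals3bp and Lgals9 were higher at or past 2-fold, 2 of 5, and 1.57% of the measured genes were past it, 1.19% higher and 0.386% lower. Since the rule had these contrasts in view, nothing is read from the member counts. The member value nearest to the 2-fold line was that of Lgals9 in GFP-TTP against GFP-only (-0.91, outside it), and the nearest inside it was that of Lgals9 in GFP-TTP-AA against GFP-TTP (1.35). At or past 1.5-fold, either way, were 2 members in GFP-TTP against GFP-only (2.78% of the measured genes), 1 when GFP-TTP-AA was set against GFP-only (3.48%) and 2 in the remaining comparison (6.91%). The median log2 difference over the 5 genes was -0.20, 0.20 and 0.36 in the 3 comparisons, beside medians of 0.00, -0.01 and -0.01 and SDs of 0.26, 0.27 and 0.35 over the measured genes. Lgals1, Lgals3, Lgals3bp and Lgals9 were below 0 in GFP-TTP against GFP-only and above 0 in the other comparisons, which share libraries with it. How many measured genes share these signs was not counted, so nothing is read from them. Of the measured genes, 73.4%, 38.9% and 34.3% differed at least as much as Lgals1 in the 3 comparisons. The shares were 37.1%, 49.2% and 23.2% for Lgals3, and 47.0%, 75.8% and 74.3% for Lgals8.

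**Figure D2:**
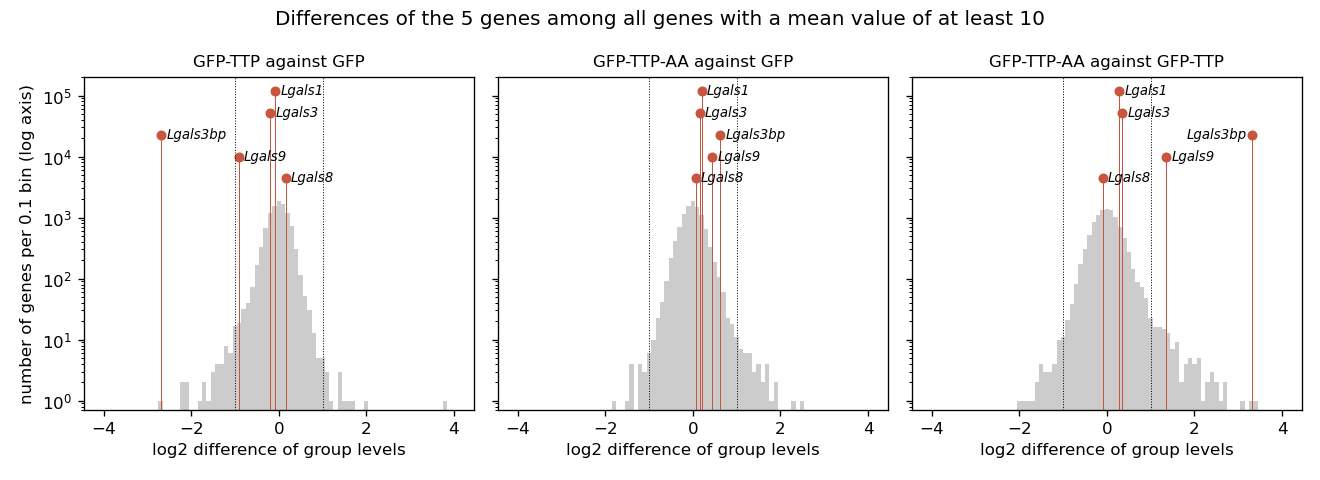
Log2 difference of group levels (horizontal axis) for the 10102 measured genes as grey bars (number of genes per 0.1 bin, log vertical axis) and for the 5 genes as red points with a line down to the axis; the height of a point has no meaning and dotted lines mark 2-fold. Lgals3bp stood at the edge of all genes with -2.68 (GFP-TTP against GFP-only) and 3.31 (GFP-TTP-AA against GFP-TTP), Lgals9 lay at -0.91 and 1.35, and Lgals1, Lgals3 and Lgals8 lay inside the bulk.

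A level at least 2-fold lower in GFP-TTP than in both other groups was found for 33 of the 10102 measured genes (0.327%). Lgals3bp was one of them and Lgals9 was not, since it missed 2-fold against GFP-only. Of the 33 genes, 30 were also above GFP-only in GFP-TTP-AA, Lgals3bp among them. By likeness of the 3 group levels, each centred on the gene's mean, and over the 8439 other genes with a mean of at least 50, no gene came within a root mean square distance of 0.1 (log2) of Lgals3bp. This distance is not scaled for the size of the differences, so a gene with large differences has few genes near it even where others share its order of groups. The nearest to Lgals3bp were Smpdl3a, which encodes a phosphodiesterase of the acid sphingomyelinase family, at 0.26, then Cd72, an inhibitory surface receptor, at 0.40, and the necroptosis kinase Ripk3 at 0.47. In the order GFP-only, GFP-TTP, GFP-TTP-AA, the levels of Smpdl3a were 263, 58.4 and 616, and those of Cd72 433, 99.0 and 499.7. Lgals9 was at rank 37, at a distance of 0.88. For Lgals9 itself 14 genes lay within 0.1. The nearest 3 were Pycard, the adaptor of inflammasomes (0.01), Sdc3, the cell surface proteoglycan syndecan 3 (0.04), and Pir, which encodes pirin (0.04). Pycard went from 1118 to 587 and 1494 in the 3 groups. With only 3 group levels, 1562 to 3039 genes lay within 0.1 of Lgals1, Lgals3 and Lgals8, and the nearest genes to them (Bcl6, Irak4 and Wdr82 for Lgals1; Pi4kb, Cox6a1 and Wash for Lgals3; Rps6kb2, Lcmt1 and 1700017B05Rik for Lgals8) mark no particular likeness.

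**Figure D3:**
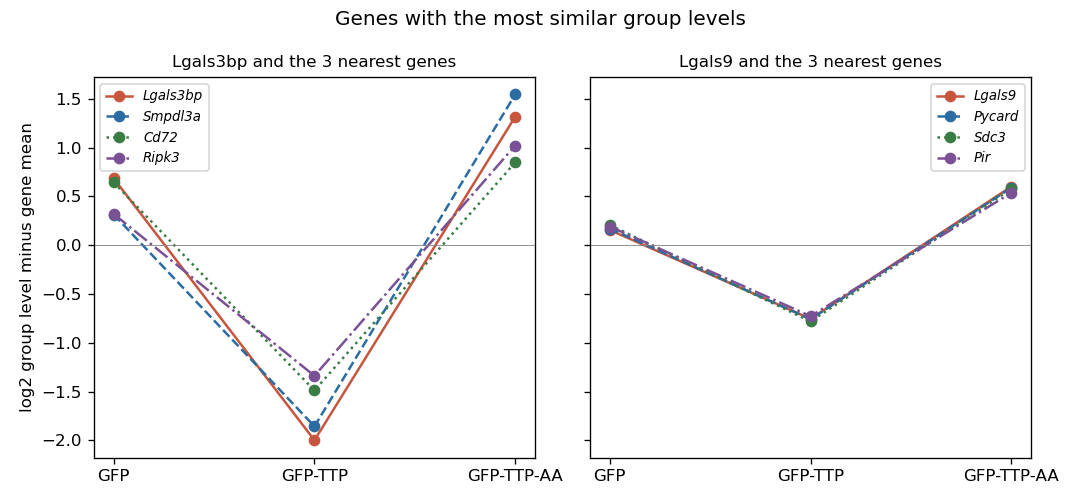
Log2 group levels minus the mean of the gene (vertical axis) in the 3 groups (GFP is GFP-only) for Lgals3bp (left) and Lgals9 (right), each with the 3 genes nearest to it over these 3 levels. Smpdl3a, Cd72 and Ripk3 shared the low GFP-TTP level of Lgals3bp at distances of 0.26 to 0.47, and the lines of Pycard, Sdc3 and Pir ran almost on top of that of Lgals9 at distances of 0.01 to 0.04.

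The chromosomal neighbours of Lgals3bp did not share its difference. Within 1 Mb of the gene 22 measured genes had medians of -0.04, -0.09 and -0.04 in the 3 comparisons, and 0 of them were at or past 2-fold. For Cant1, at a distance of 4197 bases the nearest, the log2 differences were 0.13, 0.12 and -0.01. Around Lgals9, 31 genes had medians of 0.00, -0.14 and -0.18, again with 0 at or past 2-fold. Nos2, the inducible nitric oxide synthase gene, lies 2720 bases from Lgals9 and had log2 differences of 0.00, 0.34 and 0.33.

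Other genes of the family and of the galectins' surroundings were taken from lists. Of 7 other galectin family genes 3 had a row, Lgals2, Lgals7 and Lgalsl, with mean scaled values of 1.43, 0.473 and 5.64, so none of them was among the measured genes. The enzymes that branch N-glycans and add galactose, and so make the sugars that galectins bind, had 18 measured genes. None of the 18 was at or past 2-fold in any comparison, and their medians were -0.02, -0.08 and -0.09. B4galt1 and B4galt5, galactosyltransferases with the highest means of the list, had log2 differences of -0.05, 0.13 and 0.17, and of 0.11, 0.03 and -0.08.

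The 14 measured glycoproteins that galectins are known to bind had medians of 0.06, -0.02 and -0.02, again with 0 at or past 2-fold. Lamp1, the lysosomal membrane glycoprotein, had levels of 6867, 5943 and 8047 in the same order, log2 differences of -0.21, 0.23 and 0.44. P4hb, protein disulfide isomerase, had log2 differences of 0.19, -0.06 and -0.25. The 15 measured genes of the response to damaged endosomes and lysosomes, in which Lgals3, Lgals8 and Lgals9 take part, also had 0 at or past 2-fold, and medians of 0.00, -0.05 and -0.08. The autophagy receptor Sqstm1 stood at 0.21, 0.07 and -0.14, and Pdcd6ip, which encodes the membrane repair factor ALIX, at 0.03, -0.05 and -0.08. Lgals3bp carries a scavenger receptor cysteine-rich (SRCR) domain, and of 9 listed genes with such a domain 3 were measured. None of the 3 reached 2-fold, and their medians were 0.03, 0.43 and 0.40. Msr1, scavenger receptor A, had levels of 810.0, 626 and 1095 in the 3 groups (log2 differences -0.37, 0.43 and 0.80), and Marco 121, 124 and 164.

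The interferon-stimulated genes were the list with genes at or past 2-fold. Of 34 listed genes, which leave out the 5 members, 29 were measured. In GFP-TTP against GFP-only 8 of the 29 were lower at or past 2-fold and 0 were higher, the median was -0.62, and 29 of 29 were below 0. In GFP-TTP-AA against GFP-TTP 13 were higher and 0 lower, with a median of 0.96 and 28 of 29 above 0. In GFP-TTP-AA against GFP-only 3 were higher and 0 lower, with a median of 0.28, and 22 of the 29 were above 0 and 7 below it. The shares at or past 2-fold over the measured genes are those given above for each direction. Beside the counts on each side of 0, the medians over all measured genes lay near 0. They were 0.00 in GFP-TTP against GFP-only, -0.01 in GFP-TTP-AA against GFP-only and -0.01 in GFP-TTP-AA against GFP-TTP. Named by size, Oasl1, of the oligoadenylate synthetase-like family, had levels of 60.4, 26.0 and 148 in the order GFP-only, GFP-TTP, GFP-TTP-AA. The RNA sensor gene Ifih1 had 49.3, 19.4 and 104, and the nuclear body gene Sp100 had 140.1, 41.4 and 169. Xaf1, a proapoptotic gene, had 64.9, 27.6 and 83.9, and Rtp4, which encodes a receptor-transporting protein, had 35.1, 19.7 and 57.6. Fitted differences between replicates were large for most of these genes. The SD of the replicate term (log2) was 0.77 for Oasl1, 0.48 for Ifih1, 0.16 for Sp100, 0.56 for Xaf1 and 0.63 for Rtp4. Its median over the measured genes was 0.15. Lgals3bp, with -2.68 and 3.31, lay past the extremes of this list, -1.76 (Sp100) in GFP-TTP against GFP-only and 2.51 (Oasl1) in GFP-TTP-AA against GFP-TTP. Lgals9 lay within its range. Since the members and this list were both chosen with results of these data known, the resemblance is a description. The summed macrophage markers given above, mostly Lyz2, were also lowest in GFP-TTP and highest in GFP-TTP-AA. By gene, 4 of the 8 markers had that order (Adgre1, Csf1r, Cd68 and Lyz2), while Itgam and Cd14 were lowest in GFP-only and Fcgr1 and Mertk highest there, and the markers' part in these differences was not tested.

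**Figure D4:**
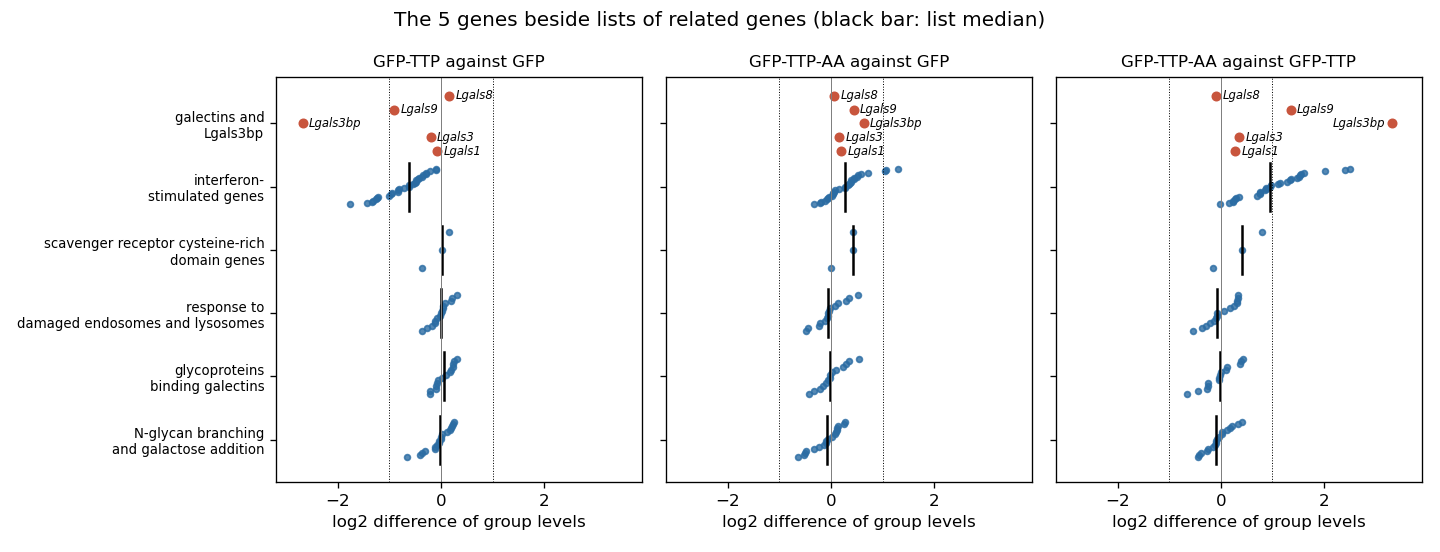
Log2 differences of group levels (horizontal axes) in the 3 comparisons for the 5 genes (red, named) and for the measured genes of 5 lists (blue points, sorted within a list; black bar, list median; dotted lines, 2-fold). The interferon-stimulated genes lay to the left in GFP-TTP against GFP-only (median -0.62) and to the right in GFP-TTP-AA against GFP-TTP (0.96), on the side of Lgals3bp and Lgals9, and no gene of the other 4 lists was at or past 2-fold.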

How the data were processed

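Ribosome-protected fragments of 9 libraries were analysed from the signal table that the authors deposited as normalized counts. Per the submitters' processing notes, reads were handled with Trim Galore, TopHat2 2.0.12 (up to 2 alignments per read kept, per the methods), HTSeq and DESeq2 1.6.3 on GRCm38. The deposited signal values proved to be fitted values of a model with group and replicate terms (0 values at exactly 0). The deposited comparison columns hold fold changes, standard errors and p-values and were not used, and the mean column was used only to check the scale. Size factors were recovered from the 2056 genes with a mean under 0.2, whose SD in log2 was 0.021 to 0.029 per library. Differences are of mean log2 scaled values, with no pseudocount. The code recovered known differences from a simulated table built from the same kinds of term, with none in the lowest genes. That checks the code and not the choice of scaling. Genes with a mean of at least 10 were counted, and calls were made at 2-fold. The members and gene lists were chosen with earlier results of these data known. Named were the 5 members, Zfp36, other galectins with a row, of each list up to 5 genes past 2-fold with the largest difference (otherwise the 2 with the highest mean), and the 3 genes nearest each member; Heatr1, Cant1 and Nos2 were named for their position after values were seen. Coordinates and coding lengths came from GENCODE vM21. Python 3.11.15, numpy 2.4.6, pandas 2.3.3 and matplotlib 3.10.9 were used.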

Additional observations from a re-analysis of the deposited data

How the results depend on the processing

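The values are fitted and each group has 3 libraries, so the table used here gives no error, test or observed replicate spread for any difference (the deposited standard errors and p-values were not used), and group and transduced line coincide. Other scalings (median of ratios, library total, upper quartile), pseudocounts of 1 and 10, subtraction of the chromosome median and each library of a comparison left out gave 180 values of the members, of which 0 changed sign and 1 moved by the SD of the replicate term or more. Among the 180, leaving out 1 library shifts a difference only by a part of that library's fitted replicate term. That part cannot reach the SD of the term, so the small moves of those values were fixed by construction and show nothing of stability. A further 105 values, from the replicate number left out or blocked or from a library outside the comparison left out, stay at or near the value by construction and show nothing of stability either. With single libraries left out, Lgals1 ran from -0.13 (without GFP-only replicate 1) to -0.01 (without GFP-TTP replicate 1) in GFP-TTP against GFP-only and Lgals8 from 0.01 (without GFP-only replicate 1) to 0.12 (without GFP-TTP-AA replicate 1) in GFP-TTP-AA against GFP-only. Subtracting the median of chromosome 11 put Lgals3bp in GFP-TTP-AA against GFP-TTP at 3.43. At a 1.5-fold call, 2 members (2.78% of measured genes) passed for GFP-TTP against GFP-only, 1 (3.48%) for GFP-TTP-AA against GFP-only. Without GFP-only replicate 2, Lgals9 passed 2-fold too, so that 2 members were past 2-fold in GFP-TTP against GFP-only, a range of 1 to 2 over the libraries left out. No paired analysis was possible because the results come from no test; with the replicate number as a block the fit gave -2.68 and 3.31 for Lgals3bp, by construction as without it.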
